A study of Rattus norvegicus with 4 samples.

Results

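Inner retina and eye-field transcription factors are DNA-binding proteins that set up the eye in the embryo and keep the identity of neurons in the adult retina. The set held 10 genes, chosen by name: Tfap2a, Tfap2b, Onecut1, Onecut2, Lhx1, Lhx2, Prox1, Pax6, Six3 and Six6. Values were read for 9 of them among 14485 gene names. Of these, 8 stood under their own symbol, Tfap2b stood under its older symbol Tcfap2b, and Onecut2 was not analysed here. RNA sequencing covered 2 groups, eye and retina, both from Long Evans rats (genotype Wild Type), a strain with pigmented eyes. The labels give no age or treatment, say that each library pooled 5 rats, and name 2 technical replicates per tissue. A single column of values was read per tissue, so each tissue is represented by 1 pool and no difference below has a replicate check. The description field calls all 4 samples retina mRNA, whereas titles and tissue fields separate eye from retina, and the libraries are named here by their tissue.

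Pax6, Six3, Six6 and Lhx2 belong to the eye-field network: they act in the anterior neural plate and optic vesicle to specify retina, and stay on in parts of the mature eye. Pax6 is a paired-domain and homeodomain protein that persists in amacrine, horizontal and ganglion cells and is also expressed in the epithelia of lens, cornea, iris and ciliary body. Six3 and Six6 are closely related homeodomain proteins of the sine oculis family, and Lhx2 is a LIM-homeodomain protein that persists in Mueller glia. The other members mark inner neurons. Onecut1 and Lhx1 are typical of horizontal cells, Tfap2a and Tfap2b (AP-2 alpha and beta) of amacrine and horizontal cells, and Prox1 of horizontal, some amacrine and some bipolar cells. Outside the neural retina, Prox1 is also known from lens fibre cells and lymphatic endothelium, and Tfap2a from surface ectoderm and its derivatives.

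Six3 and Six6 are shown first by sequence, because they are paralogs of the eye field whose level ratio differed between the libraries by less than counting error, and Pax6 is shown for contrast. Each run is the 250 bases before the gene's start in RefSeq, build GRCr8, written 5′ to 3′ along the gene's strand, with capitals marking every match to a motif searched on both strands. Six3 lies at chr6:14796257-14796506 on the minus strand, Six6 at chr6:97370185-97370434 on the plus strand and Pax6 at chr3:112590346-112590595 on the plus strand.
Six3: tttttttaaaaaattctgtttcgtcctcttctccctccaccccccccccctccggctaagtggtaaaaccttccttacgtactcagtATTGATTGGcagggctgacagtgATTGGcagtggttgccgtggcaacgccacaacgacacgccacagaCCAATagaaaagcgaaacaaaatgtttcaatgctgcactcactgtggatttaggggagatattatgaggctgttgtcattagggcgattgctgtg
Six6: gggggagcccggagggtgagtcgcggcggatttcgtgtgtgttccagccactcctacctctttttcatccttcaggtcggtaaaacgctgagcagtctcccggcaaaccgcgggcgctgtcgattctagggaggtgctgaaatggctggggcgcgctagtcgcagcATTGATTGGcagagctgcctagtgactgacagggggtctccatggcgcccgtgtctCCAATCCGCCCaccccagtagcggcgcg
Pax6: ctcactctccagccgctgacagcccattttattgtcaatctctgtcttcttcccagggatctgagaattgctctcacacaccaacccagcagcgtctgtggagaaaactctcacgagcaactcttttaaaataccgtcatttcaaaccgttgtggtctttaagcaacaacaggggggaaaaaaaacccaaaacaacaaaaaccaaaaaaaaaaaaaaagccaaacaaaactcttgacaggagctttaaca

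The motifs searched were TAATTA, a homeodomain core, ATCAAT, a Onecut core, GCCNNNGGC, an AP-2 palindrome, GGGCGG, the GC box, CCAAT, and TATAAA, the TATA box. Among 33469 promoters of the same length, these were found in 4.86%, 7.10%, 12.6%, 30.5%, 34.0% and 12.9%, in that order. The Six3 window held 3 CCAAT matches and 1 Onecut core match. The Six6 window held 2 CCAAT matches, 1 Onecut core match and 1 GC box. In both windows the Onecut core match overlapped a CCAAT match within the same letters, ATTGATTGG read along the gene, which stood on either strand in 0.12% of all promoters. The longest run that the 2 windows shared was ATTGATTGGCAG, starting 163 bases before the start of Six3 and 84 bases before that of Six6, and it was present in 5 of the 33469 promoters. Over the 10 pairs of the 5 members with an entry (Lhx1, Lhx2, Pax6, Six3 and Six6), this was the longest shared run, and the other pairs shared 7 to 10 bases. The Pax6 window held none of the 6 motifs. These matches describe letters and were picked out after the sequences were seen.

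Levels are given as RPKM, the reads of a gene scaled by its length and by the library's total, so they can be compared between genes. This unit was inferred from the values. The totals recovered from the values were 28071917 reads for eye and 51944762 for retina. Intervals in the text are exact 95% intervals, taken from the smallest whole reads that give each value. They cover counting error only, because amplified reads carry no molecular identifier and are not independent, and they compare the 2 libraries and not the tissues. A gene was called different at a fold of at least 2 after 0.1 was added to both values, among the 13259 genes that reached 1 in one or both libraries. Folds printed for single genes are ratios of the values without the added 0.1.

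All 9 members passed that minimum. Pax6 was the most abundant, at 96.7 in eye and 111 in retina, and Onecut1 the least, at 0.936 and 2.47. The members spanned 45.01-fold in retina and 103-fold in eye, and Pax6 alone made up 40.02% of their summed level in retina and 48.8% in eye. In retina 7 of the 9 lay above the median gene (8.11), and in eye 5 did (median gene 8.75). Ranks were taken among 65 genes with a value, namely the members and the lists of related factors described below, without cofactors. There Pax6 ranked first in eye and at place 4 in retina, and Six3 held place 7 and place 6. These ranks depend on the lists: Nrl, kept in the rod list and outside the 65, lay above Pax6, at 370 in eye and 771 in retina.

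**Figure D1:**
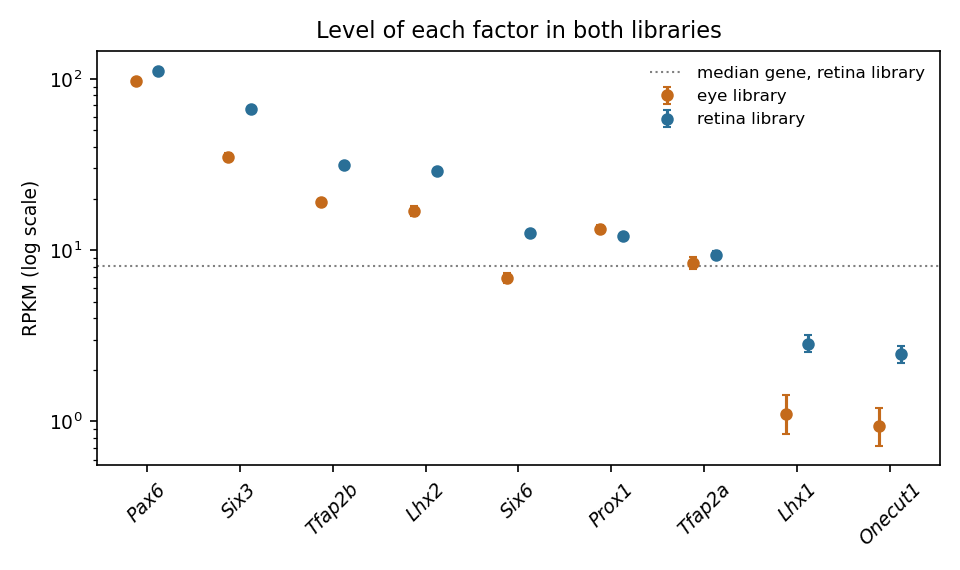
RPKM of each member in the eye and the retina library, on a log axis, ordered by level in retina; bars are 95% counting intervals and the dotted line is the median gene of the retina library (8.11). Pax6 stands highest in both libraries (96.7 and 111), Lhx1 and Onecut1 lowest, and Prox1 is the member with its higher point in the eye library.

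The order of levels was nearly the same in both libraries. From the top it ran Pax6, Six3, Tfap2b and Lhx2 in each, and Lhx1 and Onecut1 closed it in each. Between them, retina had Six6, Prox1 and Tfap2a, whereas eye had Prox1, Tfap2a and Six6. Neighbours whose counting intervals overlapped were Six6 (12.6) and Prox1 (12.2) in retina, and Lhx1 and Onecut1 in both libraries. All other neighbours lay apart by counting error, the closest being Tfap2b and Lhx2, with a ratio of 1.12 in eye and 1.08 in retina.

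Of the 9 members, 8 had their higher value in retina and Prox1 had its higher value in eye. Of all genes compared, 50.7% had their higher value in retina. Lhx1 and Onecut1 were called lower in the eye library and 0 members were called higher. Over all genes compared, 7.95% were called lower and 17.8% higher. The median log2 difference of the 9, eye over retina, was -0.78, against -0.01 for all genes compared. The counting interval of the ratio lay away from 1 for all 9, but at this read depth that includes ratios as small as 1.09 for Prox1. The share of all genes with such an interval was not computed, so whether the count is particular to the members is not known. In bulk tissue, fewer cells of a type and less RNA per cell cannot be told apart.

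Among the eye-field members, Six3 was at 35.1 in eye and 66.7 in retina. It was 1.90-fold lower in eye (interval 1.79 to 2.02), just short of the 2-fold threshold. Six6, its paralog, was at 6.87 and 12.6, a 1.84-fold difference (1.70 to 2.00). Six3 and Six6 thus stood close together in their difference, although Six3 had by far the higher level. Lhx2 was at 16.9 in eye and 29.1 in retina, 1.72-fold lower (1.59 to 1.85). Pax6 differed from these: its retina value was only 1.15-fold above its eye value (1.12 to 1.19). None of the 4 was called, and their ratios lay between 1.15 and 1.90.

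Among the members of inner neurons, Onecut1 and Lhx1 had the largest differences, whereas Tfap2a, Tfap2b and Prox1, also found in horizontal cells, had smaller ones. Onecut1 was at 0.936 in eye, from 62 reads, and 2.47 in retina, from 303 reads, 2.64-fold lower (2.00 to 3.53). Lhx1 was at 1.10, from 59 reads, and 2.85, from 282 reads, 2.58-fold lower (1.95 to 3.48). These intervals overlap each other, and they are the widest of the set because both genes rest on few recovered reads. Neither was called when 1 was added in place of 0.1 (log2 folds -0.84 for Onecut1 and -0.87 for Lhx1). Tfap2b, at 19.0 in eye and 31.5 in retina, was 1.66-fold lower (1.57 to 1.75). Tfap2a, at 8.43 and 9.39, had almost equal values, with a ratio of 1.11 (1.015 to 1.22). Prox1, at 13.3 in eye and 12.2 in retina, was 1.09-fold higher in eye (1.02 to 1.16). The 5 members of inner neurons thus ran from 2.64-fold lower to slightly higher in eye.

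The scaling of the libraries decides the sign of the small differences. With both libraries scaled to equal summed values, Prox1 turned lower in eye (log2 fold -0.51). With lens reads taken out of both totals, Tfap2a turned slightly higher in eye (0.04) and Pax6 came to -0.01. Equal sums moved the median of all genes from -0.01 to -0.64, and totals without lens reads moved it to 0.18. Under equal sums 6 members were called lower, namely Onecut1, Lhx1, Six3, Six6, Lhx2 and Tfap2b, against 32.2% of all genes compared.

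**Figure D2:**
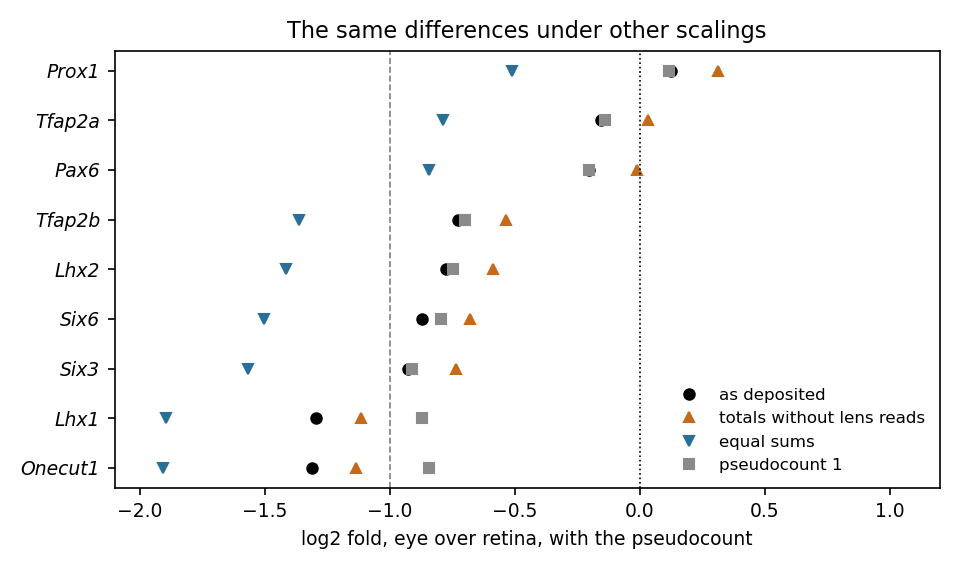
Log2 fold of each member, eye over retina, with values as deposited, with lens reads taken out of both totals, with equal sums (0.1 added in these 3) and with 1 added; the dashed line is the 2-fold threshold and the dotted line is no difference. A scaling shifts all members almost alike, and adding 1 moves mainly Onecut1 and Lhx1.

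A ratio between members within a library does not depend on how the library was scaled. Six3 was 5.10 times as abundant as Six6 in eye (4.67 to 5.58) and 5.28 times in retina (5.03 to 5.54). The ratio in eye over that in retina was 0.97, with an interval of 0.87 to 1.07 that includes 1. The paralogs of the other families shifted against each other. Tfap2b was 2.26 times Tfap2a in eye and 3.36 times in retina, a 1.49-fold change of the ratio (1.33 to 1.66). Lhx2 was 15.3 times Lhx1 in eye and 10.2 times in retina, a 1.51-fold change (1.12 to 2.05). The labels do not say how reads that fit both paralogs were counted.

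Set against Pax6 in the same way, 7 of the other 8 members changed their ratio beyond counting error. The share of all genes that would do so was not computed, so the count cannot be read as particular to the members. Each ratio also carries the small difference of Pax6 itself (log2 fold -0.20). Onecut1 and Lhx1 relative to Pax6 were 0.44 and 0.45 times as high in eye as in retina. Six3 and Six6 stood at 0.61 (0.56 to 0.65) and 0.63 (0.57 to 0.68), Lhx2 at 0.67 and Tfap2b at 0.69. Tfap2a kept its ratio to Pax6 within counting error, at 1.03 (0.94 to 1.14). Prox1 was the member whose ratio to Pax6 was higher in eye, at 1.26 (1.17 to 1.35).

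**Figure D3:**
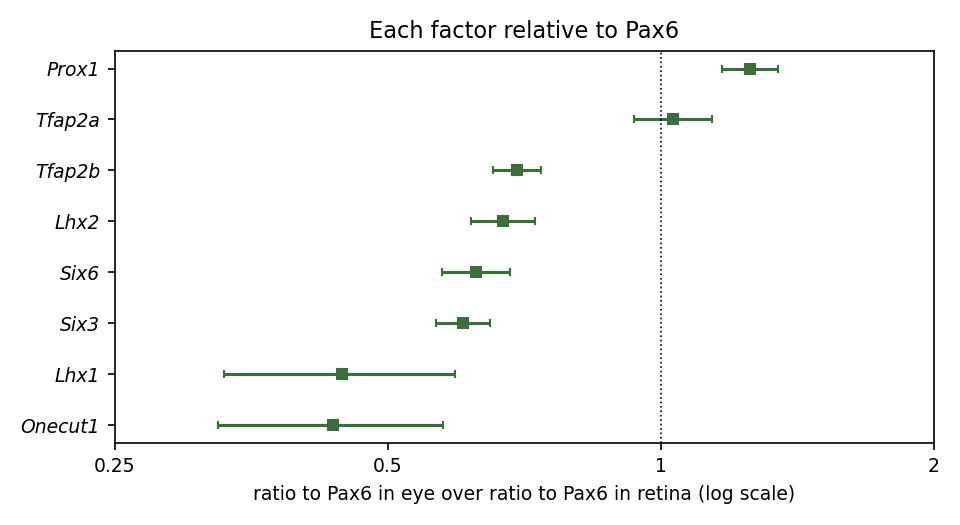
Ratio of each member to Pax6 in the eye library divided by the same ratio in the retina library, on a log axis, with exact 95% counting intervals; the dotted line at 1 is an unchanged ratio. Onecut1 and Lhx1 lie lowest (0.44 and 0.45), Tfap2a overlaps 1, and Prox1 lies above it (1.26).

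Since an eye contains its retina, the members were also set against 47 marker genes of horizontal and amacrine cells, bipolar cells, ganglion cells and rods. Their median log2 fold was -0.80, or 1.74-fold lower in eye, with quartiles at -1.09 and -0.53. Of the 47, 16 were called lower and 1 higher (Npy, a neuropeptide also made outside the retina, at 214 in eye and 25.3 in retina). Tfap2b, Lhx2, Six6 and Six3 lay near that median, at 0.07, 0.02, -0.07 and -0.13 relative to it. Onecut1 and Lhx1 lay below it, at -0.52 and -0.50, and 3 and 4 of the 47 genes had a lower fold than they did. With 1 added in place of 0.1 they came to -0.05 and -0.08, close to the median. Pax6, Tfap2a and Prox1 lay above it, at 0.59, 0.64 and 0.92, higher than 41, 41 and 43 of the 47. Calb1, Tac1, Vip, Lgi2 and Npy of the horizontal and amacrine cell list lay above Pax6 and Tfap2a. So did Rbpms, a ganglion cell gene. With rod genes alone as the reference, Six3 and Six6 came to lie above it (0.12 and 0.18), and with horizontal and amacrine cell genes alone, Tfap2b and Lhx2 came to lie below it (-0.02 and -0.06).

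**Figure D4:**
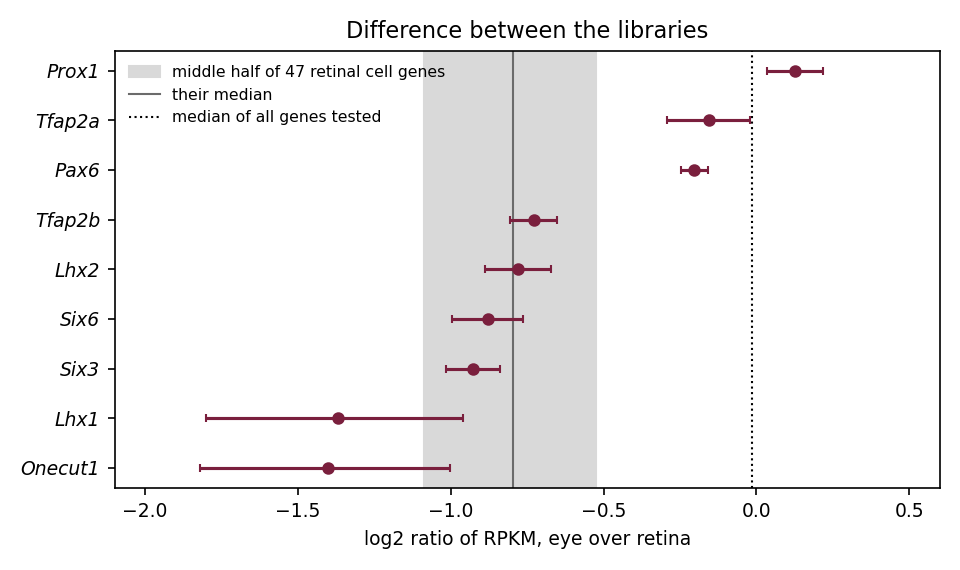
Log2 ratio of RPKM, eye over retina, for each member with its exact 95% counting interval; the grey band is the interquartile range (-1.09 to -0.53) and the grey line the median (-0.80) of 47 retinal cell genes, and the dotted line is the median of all genes compared (-0.01), both with 0.1 added. Tfap2b, Lhx2, Six6 and Six3 fall in the band, Onecut1 and Lhx1 to its left, and Pax6, Tfap2a and Prox1 to its right.

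Markers of tissues outside the neural retina, some of which are known to express Pax6, Tfap2a or Prox1, were mostly higher in the eye library. Of 16 lens genes, 15 were called higher, and their summed level was 182138 in eye and 1923 in retina. Foxe3, a factor of the lens epithelium, was not called, at 13.2 and 17.4. All 16 genes of corneal and conjunctival epithelium were higher (5090 against 14.1), led by Krt12, the corneal keratin, at 2318 in eye and 0.955 in retina, and 1 of them was listed at 0 in retina. Of 5 lymphatic endothelium genes, 4 were higher (60.3 against 25.8 over all 6 with a value). The 2 with the highest mean were Pdpn, higher in eye at 39.9 against 12.8, and Reln, not called, at 6.27 in eye and 8.77 in retina. Lyve1 was at 1.39 and 0.137. Ccl21 was at 3.61 in eye and at 0 in retina, at least 52.4-fold higher against a floor of 3 reads in the retina library. Higher genes numbered 10 of 13 for ciliary body, iris and stroma, 6 of 9 for endothelium, 13 of 13 for skeletal muscle and 11 of 11 for pigment epithelium and melanin. The part of these tissues in the values of Pax6, Tfap2a and Prox1 was not tested.

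The lists of retinal neurons leaned the other way, with median log2 folds from -1.05 for rods to -0.66 for ganglion cells. Of 15 horizontal and amacrine cell genes, 5 were lower and 1 higher. Slc32a1, the vesicular transporter of GABA and glycine, was 2.64-fold lower in eye (2.50 to 2.79), as far as Onecut1 was. Calb1, a calcium-binding protein of horizontal cells and other neurons, was at 28.1 in eye and 28.0 in retina. Calb2, another calcium-binding protein, was 1.64-fold lower without being called. Lower genes numbered 7 of 10 for rods, 2 of 10 for bipolar cells and 2 of 12 for ganglion cells, with none higher. Of 8 Mueller glia genes, the list closest to the adult site of Lhx2, 1 was higher (Vim) and none lower, with a median log2 fold of -0.18 that lies above that of Lhx2 (-0.78).

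Relatives from the same gene families split in both directions. Of 13 compared, 4 were lower in eye and 5 higher, with a median log2 fold of -0.64, and 4 were not called. Among sine oculis genes, Six3 and Six6 had their higher values in retina, whereas Six2 and Six5 were called higher in eye. Six2 was at 3.19 in eye and at 0 in retina, at least 73.4-fold higher against the same floor of 3 reads. Six5 was 2.05-fold higher (1.77 to 2.37).

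LIM-homeodomain relatives split as well. Lhx3 and Lhx4, factors of bipolar cells, were 2.47-fold and 2.25-fold lower in eye, close to Lhx1, and Isl2, of ganglion cells, was 2.22-fold lower. Isl1, of bipolar, amacrine and ganglion cells, was at 28.8 and 53.6 and was not called, nor was Lhx9. Lmx1a and Lmx1b were higher in eye, at 1.48 against 0.0355 and 1.96 against 0.0734. Among the AP-2 relatives, Tfap2c was at 9.66 and 17.4, 1.80-fold lower without being called. Tfap2e, found under an older symbol, was 2.12-fold lower, at 0.901 and 1.91. Prox2 was below the minimum in both libraries.

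Other eye-field and progenitor factors had a median log2 fold of -0.37. Of 17 compared, 4 were lower in eye and 2 higher. Rax, the retinal homeobox gene that acts beside Six3, Six6 and Lhx2 in the eye field, was at 49.3 in eye and 120 in retina, 2.44-fold lower (2.30 to 2.59). Hes5, a Notch effector, was 2.55-fold lower, and Vax2 and Tbx2, which pattern the retina along the dorsoventral axis, were 2.24-fold and 2.02-fold lower. Otx2 (88.3 and 158), kept in adult bipolar cells, was 1.79-fold lower and not called. Mitf, the regulator of pigment cells, was 2.87-fold higher and Eya2, a coactivator of sine oculis proteins, 2.54-fold higher.

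Other amacrine and horizontal cell factors had a median log2 fold of -0.35. Of 13 compared, 4 were lower in eye and 0 higher. Neurod2 was 2.97-fold lower (2.49 to 3.56) and Prdm13, which acts in amacrine cell specification, 2.76-fold lower (2.16 to 3.57). Barhl2 and Sall3 were 2.33-fold and 2.43-fold lower, somewhat less than Onecut1 and Lhx1. Sall3 was below 1 in eye, at 0.736 against 1.79 in retina. Neurod1, at 54.7 and 106, was 1.93-fold lower and not called. Neurod4 (35.7 and 39.9), Satb1 (7.43 and 7.39) and Tcf4 (15.0 and 15.1) had nearly equal values, like Tfap2a.

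**Figure D5:**
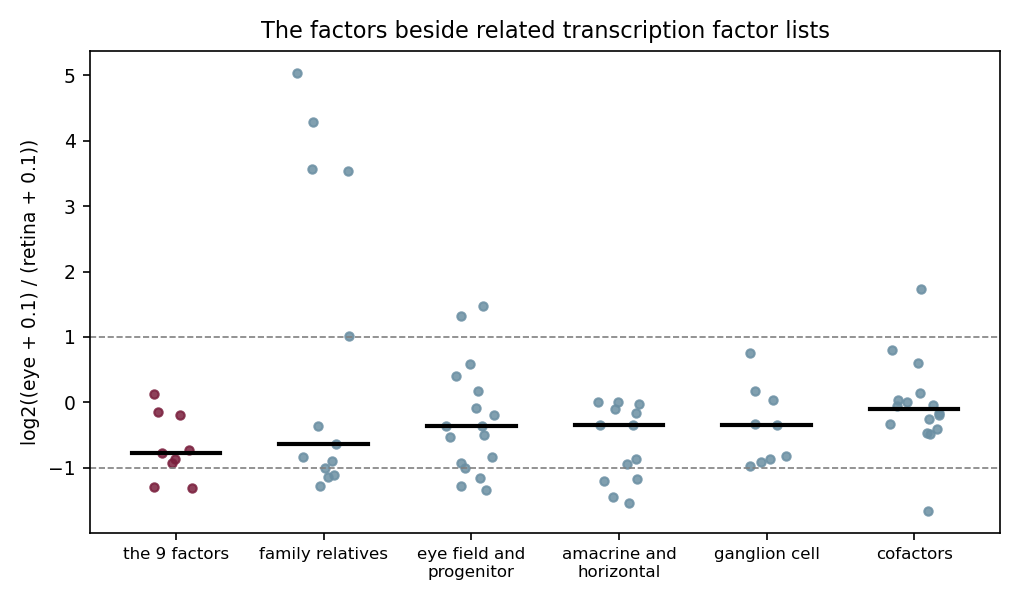
Log2 fold, eye over retina with 0.1 added, of the 9 members and of 5 lists of related factors, 1 point per gene compared; black bars are medians and dashed lines the 2-fold thresholds. The members' median is -0.78, and the family relatives reach from below -1 to above 5.

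Over both libraries, the listed factor nearest to a member in level was Bhlhe22 for Six6, at 6.82 in eye and 12.5 in retina. Sox2 was nearest to Tfap2a (8.48 and 9.06), Rbpms to Prox1 (12.3 and 10.97) and Isl1 to Six3. Distance was measured on log2(RPKM + 0.1) among 72 candidates and rests on 2 libraries only. It was 0.02 for Bhlhe22, 0.05 for Sox2, 0.18 for Rbpms and 0.42 for Isl1. For the others, Meis1 was nearest to Tfap2b (0.25), Tle4 to Lhx2 (0.29), Tbr1 to Onecut1 (0.35) and Pou4f3 to Lhx1 (0.35). Pax6 had no close neighbour: Otx2 was the nearest, at a distance of 0.53.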

How the data were processed

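RNA sequencing values of 2 libraries, eye and retina, were read from 1 column each. The tools GSNAP and HTSeq and the genome build rn4 are named per the submitters' processing notes. Their versions, the annotation, strand use and the handling of reads shared by paralogs were not given in the sources used here. Deposited values are taken as RPKM, inferred from the values. For 13980 of 13980 genes searched, whole reads over a whole length, with totals of 28071917 and 51944762, gave both values within the rounding of the printed decimals. These reads are the smallest solution, of which a common multiple would do as well. The recovery was tested on simulated data.

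Each file held 14533 rows, 7 of them ND, and of the 41 names on several rows the row with most decimals was kept. Older symbols were matched through RefSeq (GRCr8) unless they are the current symbol of another gene, and there no other gene's span overlapped that of a member. The comparison used log2((eye + 0.1)/(retina + 0.1)), a minimum of 1 in either library and a fold of 2, with Clopper-Pearson, Poisson and conditional odds ratio intervals (scipy 1.17.1, Python 3.11.15). No test across samples was possible with 1 column per tissue. Members and gene lists were chosen with earlier results of these data known. Genes named from each related list were the 2 with the highest mean, plus 2 from each end of the ranking by fold. From each cell type list they were the 2 with the highest mean, of which those bearing on a member are printed, and the listed gene nearest to each member was added. Proteins were planned for Six3 and Six6 and are not printed. A few genes that these rules pick are not reported here. Others were named after their values were seen. The value added, the minimum, the fold and the scaling were varied, and the closing section gives the effect.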

Additional observations from a re-analysis of the deposited data

How the results depend on the processing

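Taking lens reads out of the totals was chosen after seeing the data. No paired analysis was possible because each tissue had 1 column of values, and leaving out a technical replicate was not run for the same reason. Of the members, 2 were called lower in eye as reported, 0 with 1 added, 0 with the minimum raised to 5 (which leaves Onecut1 and Lhx1 out), 6 at a fold of 1.5, 0 at a fold of 4, 6 with equal sums and 0 when centred on the retinal cell genes. Over all genes, 1054 lower as reported became 655 with 1 added, 2910 at a fold of 1.5, 12 at a fold of 4, 4264 with equal sums, 35 when centred and 558 without lens reads. The 2366 higher became 1203 at a fold of 4, 1471 with a minimum of 5, 1530 with equal sums and 5216 when centred. Of the called genes, 69.2% were higher as reported, 54.8% at a fold of 1.5, 99.0% at a fold of 4, 26.4% with equal sums, 99.3% when centred and 83.4% without lens reads. These follow from how the settings are built. Onecut1 and Lhx1 kept their sign in the 12 settings that give them a value. Six3 and Six6, not called as reported, kept theirs in all 13. The other members not called changed sign in some: Prox1 with equal sums, Tfap2a without lens reads, and Tfap2a, Tfap2b, Lhx2 and Pax6 when centred. Read depth limits Onecut1 and Lhx1, with 62 and 59 recovered reads in eye.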

Other observations

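Of 16 cofactors of these transcription factors compared, 1 was lower in eye, 1 higher and 14 were not called, with a median log2 fold of -0.11. Tle2, a Groucho corepressor, was at 9.33 in eye and 29.7 in retina, 3.19-fold lower (2.93 to 3.47), whereas its relatives Tle1, Tle3 and Tle4 were not called and Tle3 had its higher value in eye. Aes, a short Groucho relative, was the most abundant cofactor, at 278 and 270. Lmo2, a LIM-only protein also known from blood and endothelium, was 3.38-fold higher in eye (2.95 to 3.87). Gmnn (5.78 and 3.27) and Cited2 (62.7 and 87.4) were not called. Lmo4 (46.1 in eye) and Ldb1, the LIM-domain binding partner of LIM-homeodomain proteins, at 16.8 in eye, were not called.

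Ganglion cell factors had a median log2 fold of -0.35, and 0 of 9 were called in either direction. Pou4f1 and Pou4f2, which mark ganglion cells, were each 1.28-fold lower in eye. Tbr1 and Eomes, which mark subsets of them, were 1.97-fold and 1.88-fold lower. Irx2, at 2.06 and 1.18, had the highest fold of this list and Myt1l, at 5.53 and 10.9, the lowest, 1.97-fold lower in eye.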
